A study of Ovis aries with 6 samples.

Results

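Basement membrane components and their receptors were examined in cultured sheep cells by comparing corneal epithelial cells with skin epidermal stem cells. The genes were chosen by name from the array's annotation: laminin alpha 4 (LAMA4), collagen IV alpha 2 (COL4A2), perlecan (HSPG2), the laminin receptor BCAM, integrin beta 1 (ITGB1), and each further probe described as a laminin subunit, a nidogen or an integrin. This gave 26 probes of 17 genes among 15008 gene probes with 14220 distinct gene names. Of these, 16 probes of 12 genes stood clear of background in at least 3 samples and were tested among 11742 probes. No probe named a nidogen, and 1 named a laminin subunit.

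The corneal group held 3 arrays of corneal epithelial cell lines, and the skin group held 3 arrays of epidermal stem cell lines. Both were grown as adherent cultures, released with trypsin and hybridised singly to an Agilent sheep array with 1 dye, Cy3. The labels give tissue (cornea or skin) and no treatment, breed, age or sex, and they do not say whether lines of 1 group came from separate animals. The p-values therefore measure only the spread between these samples.

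A basement membrane is a thin sheet of matrix under epithelia and around fat, muscle and vessel cells, in which laminin and collagen IV form networks that perlecan, a heparan sulfate proteoglycan, helps to join. Cells hold on to it through integrins, each an alpha subunit paired with a beta subunit, and through other receptors such as BCAM, which binds laminin alpha 5. In skin and cornea it anchors the basal epithelial cells, and the alpha 4 chain of laminin is better known from mesenchymal and endothelial cells.

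The probes behind the main results are shown because each value below is the brightness of 1 stretch of 60 bases. They are the array's own deposited sequences, written 5′ to 3′, and the array's annotation lists none of the 26 as mapped to a chromosome. Capitals in the collagen probes mark GGN, the glycine codon, at places set in steps of 9 bases, the spacing it has in a collagen helix. The steps were laid where most of them held GGN, and a step without GGN stays in lower case. Capitals in the ITGB1 probe mark stretches that code for NPxY, a motif of integrin beta tails.
LAMA4: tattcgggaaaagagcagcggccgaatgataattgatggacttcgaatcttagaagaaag
COL4A2 A_70_P024616: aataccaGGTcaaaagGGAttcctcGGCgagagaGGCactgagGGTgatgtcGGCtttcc
COL4A2 A_70_P029901: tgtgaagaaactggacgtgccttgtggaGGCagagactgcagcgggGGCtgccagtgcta
COL4A2 A_70_P047871: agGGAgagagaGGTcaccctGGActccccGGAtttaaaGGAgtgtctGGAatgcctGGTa
COL4A2 A_70_P047946: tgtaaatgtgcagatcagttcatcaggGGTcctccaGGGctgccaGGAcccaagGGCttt
HSPG2: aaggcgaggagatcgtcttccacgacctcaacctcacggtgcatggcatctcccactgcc
BCAM: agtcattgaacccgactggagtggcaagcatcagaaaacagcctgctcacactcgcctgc
ITGB1: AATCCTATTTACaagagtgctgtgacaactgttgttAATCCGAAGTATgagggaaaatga
ITGB5: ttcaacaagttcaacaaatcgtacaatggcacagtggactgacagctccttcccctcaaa

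The 4 COL4A2 probes held GGN at 6, 2, 7 and 4 such steps in the order printed, against at least 5 in 0.193% of all probes and at least 2 in 29.3%. The 2 steps of A_70_P029901 are not next to each other, so its capitals do not show the helix spacing. Probes A_70_P047946, A_70_P047871 and A_70_P024616, start at bases 530, 1758 and 2413 of 1 assembled transcript, while A_70_P029901 starts at base 340 of another. The longest run that a COL4A2 probe shared with the probe of its partner chain COL4A1 was 8 bases. In the ITGB1 probe the NPxY-coding motif was found 2 times in the printed strand, starting at bases 1 and 37. At least 1 match on either strand was held by 0.453% of all probes, and of the 15008 probes 1 had 2 matches in the printed strand. NPxY motifs of beta tails are known to bind talin and kindlin. A match is a description of the letters only.

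Array quality was similar within groups. The share of gene spots well above background was 74.1 ± 1.56% in corneal and 80.2 ± 2.36% in epidermal samples (SD, n = 3 each; exact two-sided permutation p = 0.1, the smallest this design can give). Across tested probes the arrays correlated at 0.995 to 0.998 within groups and at 0.968 to 0.969 between groups. All 6 arrays lay on 1 slide scanned once, with row 2 of the slide holding the corneal arrays and row 1 the epidermal ones. Row and cell type thus cannot be told apart. The epithelial labels were checked against 15 marker genes, of which 7 had a probe with a gene symbol. Only 1381 of the 15008 gene probes had a symbol. In every list here, a gene without a probe may thus still be on the array unnamed. KRT19 and TP63 were above background on 0 arrays, and KRT14 and KRT5 on 0 corneal and 2 epidermal arrays. KRT15 was above it on 1 corneal and 3 epidermal arrays, and only PAX6 and SFN on all 6. The log2 change of PAX6, corneal minus epidermal, was 0.31 (limma, adjusted p = 0.0138), with 0.36 from another probe (adjusted p = 0.00352). That of SFN was −0.35 (adjusted p = 0.0138), and that of KRT15 did not pass (−0.14, adjusted p = 0.41). The epithelial markers summed to 0.251 to 0.281 times the array's 75th percentile signal in corneal and 0.237 to 0.252 times in epidermal samples. Mesenchymal markers, 8 of 12 with a probe, summed to 916 to 932 times in corneal and 952 to 1177 times in epidermal samples, with DCN, VIM and COL1A2 bright in each group. VIM and DCN were the brightest, so the sums say little of dimmer markers such as COL3A1 and POSTN, given below. The labels are kept here as names of the groups.

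Of the 16 tested probes of basement membrane components and receptors, 6 were called higher and 5 lower in corneal samples (limma, adjusted p under 0.05), and 5 did not pass. Over all 11742 tested probes 59.8% passed, with 26.8% higher and 33.0% lower, so these shares are near the background. The median log2 change of the 16 was 0.05, against −0.04 over all tested probes. The corneal and epidermal values did not overlap for 14 of the 16, against 67.8% of all tested probes. With a normexp background correction over all spots LAMA4 alone of the 16 passed. At least 2-fold changes that passed numbered 1 higher (BCAM) and 1 lower (LAMA4), against 3.49% and 4.28% of all tested probes. In bulk RNA, fewer cells of a type and less RNA per cell cannot be told apart.

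**Figure D1:**
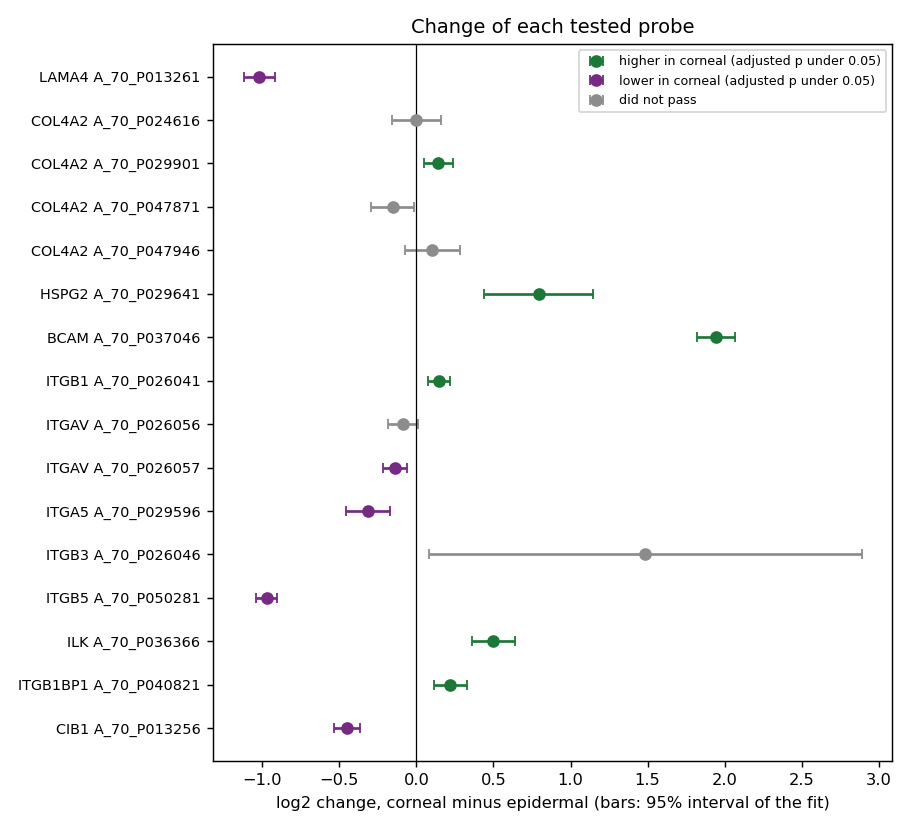
Each point is the log2 change, corneal minus epidermal, of 1 tested probe, and the bar is the 95% interval of the fit. BCAM stands at 1.94 and LAMA4 and ITGB5 near −1, while the 4 COL4A2 probes lie between −0.15 and 0.14.

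Among the matrix components LAMA4 was lower and HSPG2 higher in corneal cells, and the 4 COL4A2 probes gave changes between −0.15 and 0.14, of which 1 was called. LAMA4 encodes the laminin alpha 4 chain. Its log2 signal relative to the array's 75th percentile was −1.34, −1.33 and −1.34 in the corneal samples, against −0.27, −0.39 and −0.29 in the epidermal samples. All 3 corneal values lay below all epidermal ones, in a range much narrower than the gap between the groups. The log2 change was −1.02 ± 0.04 (SE), a level 2.02-fold lower in corneal cells (adjusted p = 1.21e-05). It kept its direction and passed under every one of the 17 other settings tried, between −1.19 and −0.90.

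HSPG2 encodes the protein core of perlecan. Its log2 level was −3.29, −3.54 and −3.28 in corneal samples, against −4.37, −3.89 and −4.22 in epidermal samples. The groups did not overlap, although the second sample of each group lay closest to the other group. The change was 0.79 ± 0.14 (SE), or 1.73-fold higher in corneal cells (adjusted p = 0.00459). With normexp over all spots the sign turned, to −0.26 (adjusted p = 0.782). The probe was dim, with processed signals of 78.7 to 94.1 units in corneal and 52.9 to 65.8 units in epidermal samples.

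COL4A2 encodes one of the chains of collagen IV and was read by 4 probes. Probe A_70_P029901 had log2 levels of −0.85, −0.89 and −0.90 in corneal samples, against −1.05, −0.96 and −1.06 in epidermal samples. Its groups did not overlap, and its change of 0.14 ± 0.04 passed (adjusted p = 0.0217), but not without corneal replicate 1 or 2 or epidermal replicate 1 or 3 (adjusted p = 0.058 to 0.0695), and without scaling between arrays it turned to −0.03. Probe A_70_P047871 had −1.82, −2.0 and −1.98 in corneal samples, against −1.76, −1.82 and −1.76 in epidermal samples. This second probe also had groups that did not overlap, with the sign the other way, and its change of −0.15 ± 0.06 did not pass (adjusted p = 0.0602). It passed without corneal replicate 1 at −0.21 (adjusted p = 0.00891), with the stricter filter that asks for all 6 arrays (adjusted p = 0.0498), and without scaling at −0.32 (adjusted p = 0.019).

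The other two COL4A2 probes had overlapping groups. Probe A_70_P024616 ran from −2.02 to −1.95 in corneal and from −2.05 to −1.84 in epidermal samples, with a change of 0.00 ± 0.06 (95% interval −0.16 to 0.16; adjusted p = 0.998). Probe A_70_P047946 ran from −2.45 to −2.42 in corneal and from −2.68 to −2.41 in epidermal samples, with a change of 0.10 ± 0.07 (95% interval −0.07 to 0.28; adjusted p = 0.255). For COL4A2 the 4 probes therefore differ in sign, and the widest of the changes was −0.15. COL4A1, the chain that pairs with COL4A2 in the same collagen molecule, was named for that pairing after its values were seen. Its log2 level was −1.56, −1.57 and −1.46 in corneal samples, against −1.23, −1.41 and −1.31 in epidermal samples, a change of −0.21 ± 0.06 (adjusted p = 0.0268). That call ended when corneal replicate 1 or 2, or epidermal replicate 1 or 3, was left out (adjusted p = 0.0631 to 0.0815).

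**Figure D2:**
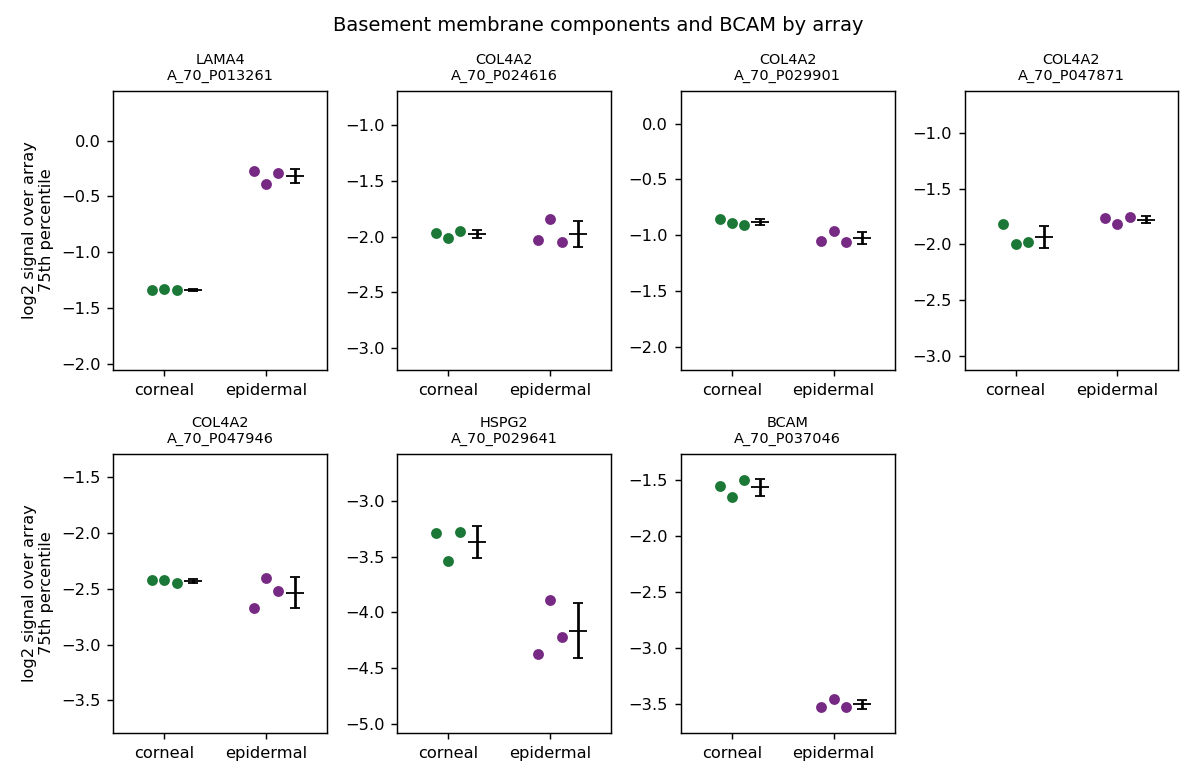
Points are the 3 corneal (left, green) and 3 epidermal (right, purple) samples of each matrix probe and of BCAM, as log2 signal over the array's 75th percentile, with mean ± SD in black. LAMA4 is lower and HSPG2 and BCAM are higher in corneal cells without overlap, while 2 of the 4 COL4A2 probes overlap.

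BCAM, the Lutheran glycoprotein and a receptor for laminin chains that contain alpha 5, showed the widest called change of the set. Its log2 level was −1.55, −1.65 and −1.50 in corneal samples, against −3.53, −3.46 and −3.53 in epidermal samples. The groups were separated by many times their own spread. The change was 1.94 ± 0.05 (SE), or 3.84-fold higher in corneal cells (adjusted p = 2.51e-06), and it lay between 1.91 and 1.98 when any 1 array was left out. With a normexp background correction that left out spots of extreme local background it was 1.46, and with normexp over all spots it was 0.80 and did not pass (adjusted p = 0.578).

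Of the 6 tested integrin subunit probes 1 was higher and 3 were lower in corneal cells, and 2 did not pass, near the 59.8% called over all tested probes. ITGB1, the beta subunit shared by the receptors for laminin, collagen and fibronectin, had log2 levels of 2.35, 2.35 and 2.34 in corneal samples, against 2.21, 2.22 and 2.17 in epidermal samples. The groups did not overlap, and the change was 0.15 ± 0.03, or 1.11-fold higher in corneal cells (adjusted p = 0.00601), but it turned to −0.02 without scaling between arrays. Leaving out the scaling moves the change of every probe named here by the same −0.17, so a sign that turns there marks only a change smaller than that.

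ITGA5, the alpha subunit of the fibronectin receptor, had log2 levels of 3.29, 3.30 and 3.21 in corneal samples, against 3.47, 3.65 and 3.62 in epidermal samples. All corneal values lay below the epidermal ones, with a change of −0.31 ± 0.06 (adjusted p = 0.00521), 1.24-fold lower in corneal cells. ITGAV, the alpha subunit of the vitronectin receptors, was read by 2 probes whose longest shared run was 6 bases. Probe A_70_P026057 had 1.00, 1.06 and 1.06 in corneal samples, against 1.17, 1.19 and 1.18 in epidermal samples, and passed at −0.14 ± 0.03 (adjusted p = 0.0115). Probe A_70_P026056 had 1.30, 1.30 and 1.27 in corneal samples, against 1.31, 1.42 and 1.40 in epidermal samples. Its change of −0.08 ± 0.04 did not pass (adjusted p = 0.112), but it passed without epidermal replicate 1 at −0.12 (adjusted p = 0.0254), without scaling at −0.26 (adjusted p = 0.00983) and with normexp without the extreme spots at −0.11 (adjusted p = 0.0152).

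ITGB5, a beta partner of ITGAV in a vitronectin receptor, had log2 levels of 0.65, 0.62 and 0.65 in corneal samples, against 1.62, 1.6 and 1.61 in epidermal samples. The samples of each group lay within 0.04 of each other and the groups were far apart. The change was −0.97 ± 0.03 (SE), or 1.96-fold lower in corneal cells (adjusted p = 3.41e-06). It lay between −0.98 and −0.96 when any 1 array was left out. ITGB3, another beta partner of ITGAV, was above background on 2 corneal arrays and 1 epidermal array. Its log2 level was −6.18, −4.36 and −6.04 in corneal samples, against −6.96, −7.59 and −6.48 in epidermal samples, and the second corneal sample stood apart from the other two. The change of 1.48 ± 0.56 (SE) did not pass (adjusted p = 0.0665), and without corneal replicate 2 it was 0.90. Under quantile normalization, in the authors' value table and with normexp without the extreme spots it passed, at 1.76, 1.73 and 0.37 (adjusted p = 0.0369, 0.0377 and 0.0456).

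**Figure D3:**
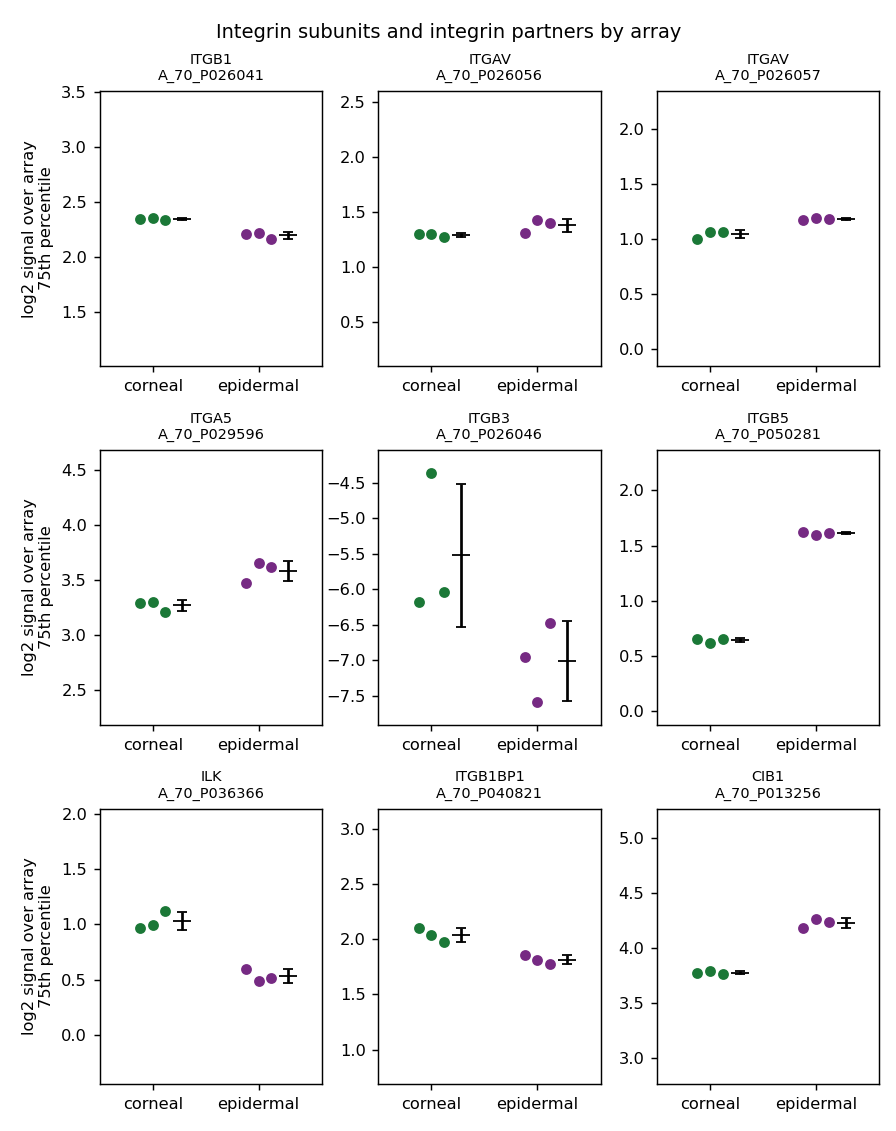
Points are the 3 corneal (left, green) and 3 epidermal (right, purple) samples of each tested integrin subunit and integrin partner, as log2 signal over the array's 75th percentile, with mean ± SD in black. ITGB5, ITGA5 and CIB1 are lower and ILK is higher in corneal cells without overlap, and the ITGB3 samples spread over more than 1 log2 unit within each group.

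The other 10 integrin probes, of 5 genes, were well above background on 2 arrays at most and were not tested. Both ITGB6 probes, for the beta subunit that epithelial cells use with ITGAV, were at background on all 6 arrays. So were both probes each of ITGAL and ITGAM, the alpha subunits of leukocyte integrins. The 2 ITGAL probes share 59 of their 60 bases and are not independent readings. The ITGAM pair and the ITGA4 pair each share a run of 40 bases and are not fully independent either. ITGB2, the beta subunit of the same leukocyte integrins, was above background on 0 corneal and 2 epidermal arrays with probe A_70_P030171 and on 0 corneal and 1 epidermal array with probe A_70_P030172. Its first probe gave log2 levels of −7.57, −8.12 and −8.16 in corneal samples, against −8.83, −4.81 and −5.03 in epidermal samples, so epidermal replicate 1 stood apart and the groups overlapped. ITGA4, which pairs with ITGB1, was above background on 1 epidermal array with one probe and on 1 corneal array, at −5.13, with the other. Of 9 immune markers 5 had a probe, ITGAM and ITGB2 among them, and their summed level was 14.5 to 14.8 times the 75th percentile signal in corneal and 22.3 to 23.2 times in epidermal samples, nearly all of it CD14. CD14 was lower in corneal cells at −0.66 ± 0.03 (adjusted p = 2.05e-05), and its other probes gave −0.30 and −0.34. Its part in these results was not tested.

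The 3 genes that act on the inner side of integrins passed, where 59.8% of all tested probes did. ILK, the integrin-linked pseudokinase that joins beta tails to the actin skeleton, had log2 levels of 0.97, 1.00 and 1.12 in corneal samples, against 0.60, 0.48 and 0.51 in epidermal samples. The groups did not overlap, and the change was 0.50 ± 0.06 (SE), or 1.41-fold higher in corneal cells (adjusted p = 0.000643). ITGB1BP1, which binds the ITGB1 tail and competes with talin, had 2.10, 2.04 and 1.98 in corneal samples, against 1.86, 1.81 and 1.78 in epidermal samples. Its change of 0.22 ± 0.04 passed (adjusted p = 0.00701) but was 0.05 and did not pass without scaling (adjusted p = 0.658). CIB1, a calcium-binding protein first known from the platelet integrin tail, had 3.77, 3.79 and 3.77 in corneal samples, against 4.18, 4.26 and 4.23 in epidermal samples. It was lower in corneal cells in all 3 samples, at −0.45 ± 0.03 (adjusted p = 0.000134).

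A list of 45 further basement membrane genes and receptors had 15 genes with a probe named by symbol and 14 tested, by the brightest probe of each. Of the 14, 5 were higher and 7 lower in corneal cells and 2 did not pass, and the median change was −0.08, against −0.04 and, as above, 26.8% higher and 33.0% lower over all tested probes. COL18A1, among the 7, entered the test only through the epidermal arrays. NTN4, a netrin that binds laminin and loosens its network, had 3.34, 3.33 and 3.29 in corneal samples, against 0.70, 0.76 and 0.77 in epidermal samples. Its change was 2.57 ± 0.03 (adjusted p = 2.8e-07), and a second NTN4 probe gave 2.52. FN1, fibronectin and the ligand of ITGA5 with ITGB1, was higher at 0.96 ± 0.03 (adjusted p = 6.88e-06), and the heparan sulfate proteoglycan SDC1 at 0.80 ± 0.09 (adjusted p = 0.000595). The other two higher genes were TINAGL1 at 0.60 and CD151, a partner of laminin-binding integrins, at 0.18, which was 0.01 and did not pass without scaling.

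The 7 lower genes were led by the fibulins, matrix proteins that bind laminin and nidogen. FBLN2 had −2.72, −2.62 and −2.30 in corneal samples, against 0.52, 0.32 and 0.47 in epidermal samples, a change of −2.98 ± 0.12 (adjusted p = 1.39e-05). FBLN1 was lower at −1.45 ± 0.17 (adjusted p = 0.000849). COL18A1, a basement membrane collagen, was well above background on 0 corneal and 3 epidermal arrays, so its direction was fixed by the filter. By the bound its level was at least 1.87-fold lower in corneal cells. Its call in the fit is not used for that reason, and it ended with normexp without the extreme spots (adjusted p = 0.299). RPSA, known both as a ribosomal protein and as a laminin receptor, was lower at −0.29, SPARC at −0.27, COL4A1 at −0.21 and SDC4 at −0.17. DAG1, the dystroglycan that binds laminin and perlecan, changed by 0.02 ± 0.04 and did not pass (adjusted p = 0.689), and DDR1, a collagen receptor, by 0.23 ± 0.10 (adjusted p = 0.107). COL4A3 was above background on 2 corneal and 0 epidermal arrays and was not tested. Its processed signals were dim, 14.4 to 18.4 units in corneal and 5.08 to 10.5 units in epidermal samples. The bound was 2.15-fold higher in corneal cells, a direction set by the group in which it was detected. The named genes that fell outside the largest 3 of each direction were chosen after their values were seen.

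Of 25 genes for the making and export of collagen IV and laminin, 7 were tested, of which 4 were higher and 3 lower in corneal cells. Their median was 0.10, against −0.04 over all tested probes, of which 26.8% were higher and 33.0% lower. The higher ones were PPIB, a collagen prolyl isomerase, at 0.44, PLOD1, a collagen lysyl hydroxylase, at 0.42, SEC23A of the secretory coat at 0.35, and P4HB, a subunit of prolyl 4-hydroxylase, at 0.10. SEC23A lost its call without scaling (adjusted p = 0.0785). P4HB turned to −0.07 without scaling and lost its call without any of 5 of the 6 arrays, corneal replicates 1, 2 and 3 and epidermal replicates 1 and 3 (adjusted p = 0.0869 to 0.124). A second P4HB probe gave 0.04 and did not pass. SEC24D, of the same coat, was lower at −0.36, the chaperone HSPA5 at −0.30 and the collagen galactosyltransferase COLGALT1 at −0.16.

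The focal adhesion list of 29 genes had 8 tested, 3 of them ILK, ITGB1BP1 and CIB1 given above. Of the other 5, 2 were higher, 1 was lower and 2 did not pass, near the 26.8% higher and 33.0% lower over all tested probes. ACTN4, an actinin that crosslinks actin at adhesions, was higher at 1.08 ± 0.03 (adjusted p = 4.23e-06), and the actin-binding FLNA at 0.32, which did not pass without scaling (adjusted p = 0.321). CAV1, the coat protein of caveolae, was lower at −1.47 ± 0.05 (adjusted p = 6.99e-06). Another pair of CAV1 probes, above background on 3 epidermal arrays but on 0 and 1 corneal arrays, passed the filter only through the epidermal samples and is not used here. RAP1B changed by −0.04 ± 0.04 and FYN by −0.36 ± 0.14, and neither passed.

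**Figure D4:**
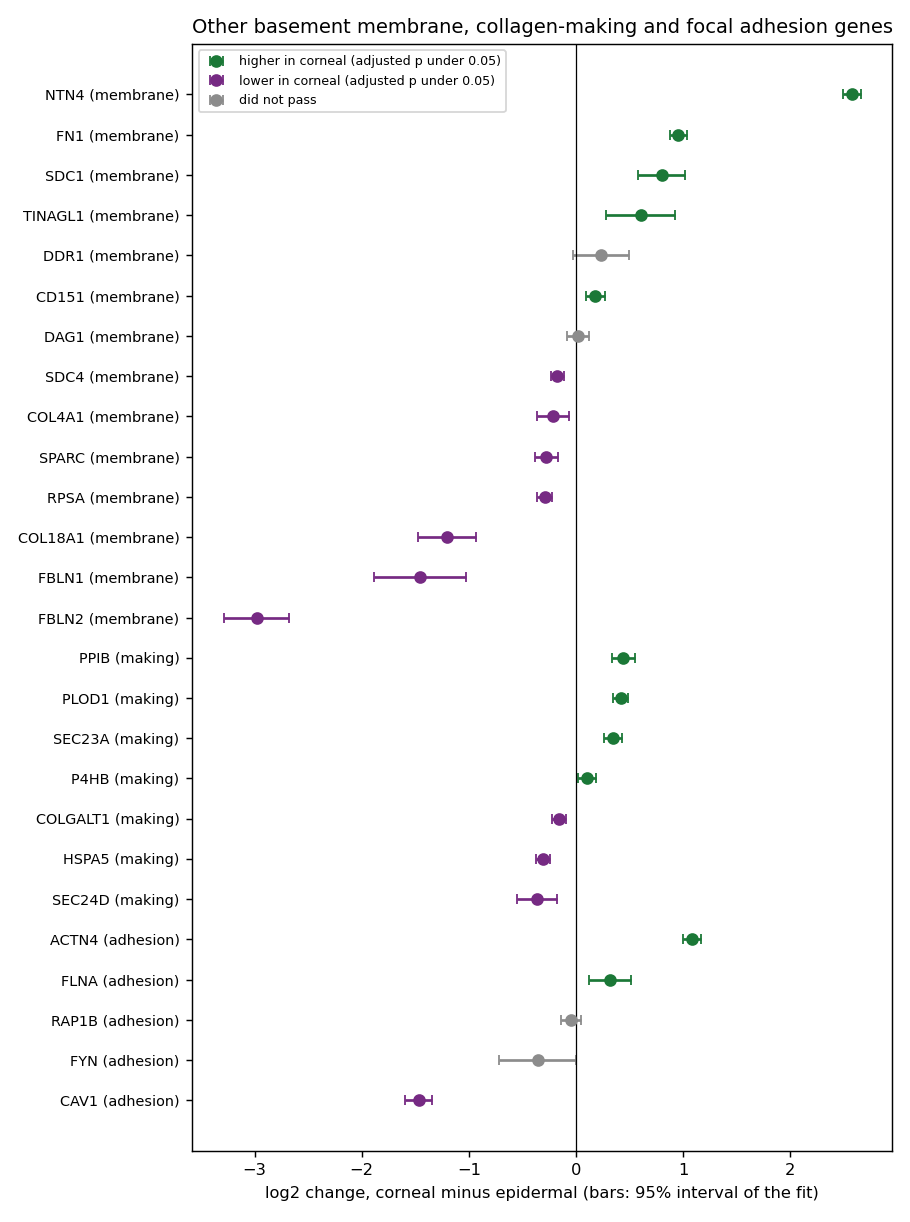
Each point is the log2 change, corneal minus epidermal, of the brightest tested probe of a further basement membrane, collagen-making or focal adhesion gene, with the 95% interval of the fit. NTN4 stands at 2.57 and FBLN2 at −2.98, and the collagen-making genes all lie between −0.36 and 0.44, while COL18A1 is drawn at its fitted value although its corneal signals were not well above background.

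Markers of cell types that make basement membrane were set beside these values. Of 10 endothelial markers PECAM1, CDH5 and TEK were above background on 0 arrays. KDR, by its brighter probe, was above background on 0 corneal and 2 epidermal arrays and was not tested. EGFL7 and ENG were above background on all 6 arrays, and their changes of 0.25 and 0.20 did not pass (adjusted p = 0.0988 and 0.154). The tested probes of VWF, TIE1 and CD34 were above it on 0 corneal and 3 epidermal arrays and that of FLT1 on 1 corneal and 3 epidermal arrays, so they passed the filter only through the epidermal samples and are not counted here. Summed over all 10 endothelial markers, the level was 0.479 to 0.504 times the 75th percentile signal in corneal and 0.471 to 0.541 times in epidermal samples. EGFL7 was the brightest of them. Of 8 mesenchymal markers tested 0 were higher and 5 lower, against 26.8% and 33.0% of all tested probes. POSTN, among the 5, was above background on 0 corneal and 3 epidermal arrays, so its direction was fixed by the filter. By the bound the POSTN level was at least 59.7-fold lower in corneal samples. The others of the 5 were COL3A1 at −4.51 ± 0.04 (adjusted p = 1.52e-07), COL1A1 at −0.54, PDGFRA at −0.51 and LUM at −0.39. Other COL3A1 probes gave −4.77 and −5.32, and another COL1A1 probe gave −0.24 and did not pass (adjusted p = 0.0519). Of 3 smooth muscle markers 2 were higher and 1 lower, and they summed to 12.4 to 13.3 times in corneal and 14.2 to 17.2 times in epidermal samples. Of 2 corneal endothelium markers tested 1 was higher and 1 did not pass, and they summed to 6.77 to 7.0 times in corneal and 5.16 to 7.17 times in epidermal samples. The single melanocyte gene with a named probe, TYR, was above background on 1 array, and the Schwann cell list had no named probe. The part of these cell types in the changes was not tested.

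The genes whose profile over the 6 samples lay nearest to each named component were found among 931 tested probes with a gene symbol, by the root mean square distance of log2 values centred on each probe's own mean. For BCAM they were TF, transferrin, at 0.07 and CRYAB, a small heat shock protein of the lens, at 0.13 log2 units. For HSPG2 they were IL13RA1 at 0.09 and ECE1 at 0.10, and for LAMA4 ATP5MC1 at 0.05 and SNRPA1 at 0.05. For the brightest COL4A2 probe they were PRDX2 and CAPN2 at 0.02 each, and for ITGB1 CAPN2 at 0.01 and IRAK4 at 0.02. With only 6 samples in 2 groups, nearness mostly reflects a like difference between the groups.

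**Figure D5:**
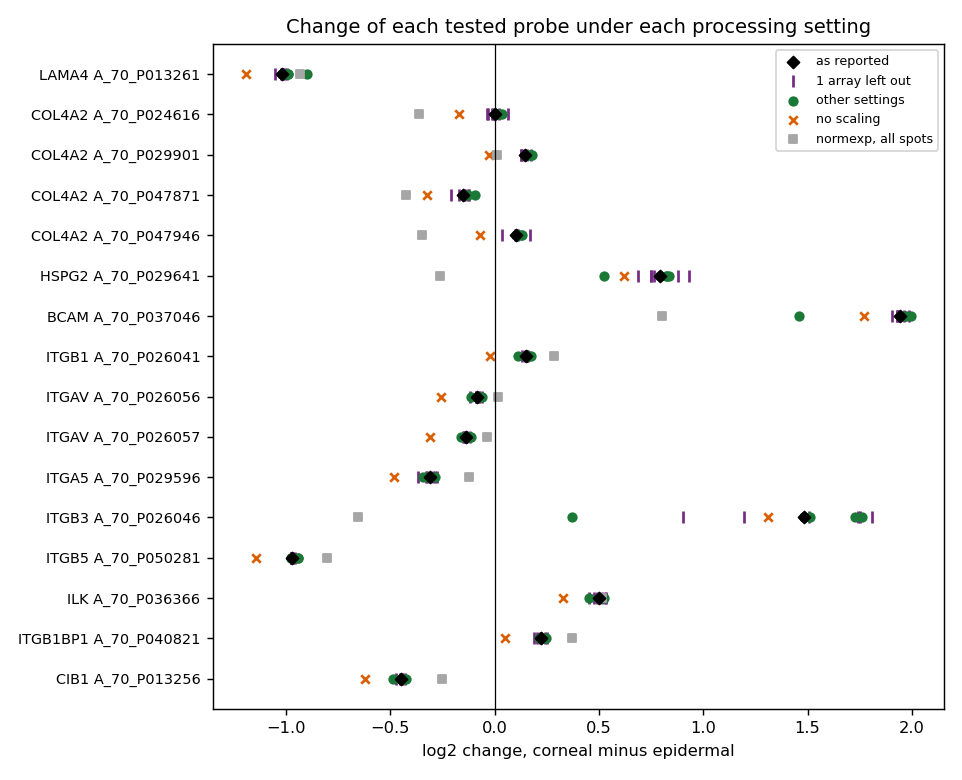
Each row is 1 tested probe, and each mark its log2 change, corneal minus epidermal, under 1 processing setting. LAMA4, ITGB5, ILK and BCAM keep their sign throughout, whereas ITGB1 and COL4A2 A_70_P029901 cross 0 without scaling and HSPG2 and ITGB3 cross 0 with normexp on all spots.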

How the data were processed

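RNA from 3 corneal and 3 epidermal samples was hybridised to an array each. The deposited scanner intensity values (background-subtracted, detrended processed signal) were made by the submitters with Feature Extraction 10.7, per the file headers and processing notes. The authors' value table holds log2 values with a median of 7.23 on every array, so it looks normalized between arrays. Equal medians do not show by which method. The table's scale was judged from the values. Its columns correlated with the matching scanner values at 0.999 or above, rounded.

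Here log2 processed signal was taken relative to each array's 75th percentile. Spots flagged as outliers were left out, and spots of 1 probe averaged. Probes called well above background by the scanner software in 3 or more samples were tested with lmFit and eBayes (limma 3.58.1, R 4.3.3), with Benjamini-Hochberg adjustment over 11742 probes. The test was checked on simulated data. A gene on several probes was described by each of them, or by its brightest probe in lists. A bound ("at least") compares the brighter group's mean with the dimmer group's, each dim value raised to its array's lowest signal well above background. Symbols came from the array's annotation and, for 747 probes, from RefSeq accessions; 1381 of 15008 probes had one. Those of LAMA4, COL4A2, HSPG2, BCAM, ITGA5, ITGB5 and ITGB1BP1 rest on the annotation's similarity to proteins of other species.

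Members and gene lists were chosen with earlier results of these data known. Named genes were all tested members, their 2 nearest profiles, and, per list, up to 3 passing genes a direction and the brightest that did not pass. The alternatives were normexp background correction with and without extreme spots, quantile and median scaling, no scaling, the authors' table, other filters, 1 probe per gene, flagged spots kept, a replicate block and leaving out each array. Same-numbered samples did not deviate together (correlations 0.017, −0.029 and 0.038), so the numbers were not taken to pair them. No probe was saturated. The number of arrays limits the precision.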

Additional observations from a re-analysis of the deposited data

How the results depend on the processing

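Normexp over all spots had the strongest effect. Epidermal replicate 1 holds 7 gene spots of extreme local background. With such spots in the fit the calls over all probes were 204 higher and 229 lower, against 3146 and 3876. Those of the basement membrane probes were 0 higher and 1 lower (LAMA4), against 6 and 5. Under this setting signs turned for COL4A2 A_70_P047946 (−0.35), HSPG2 (−0.26), ITGAV A_70_P026056 (0.015), ITGB3 (−0.65), TINAGL1 (−0.14), DDR1 (−0.54), SDC4 (0.028), RAP1B (0.17) and COLGALT1 (0.071). With every spot of extreme local background, control spots included, left out on all 6 arrays, the calls were 3893 higher and 3216 lower. Without scaling between arrays the median of all probes shifted by −0.17, 1534 probes were higher, 22.5% of the calls were higher against 44.8%, 3 basement membrane probes were higher, and COL4A2 A_70_P029901 (−0.028), COL4A2 A_70_P047946 (−0.068), ITGB1 (−0.023), DAG1 (−0.15) and P4HB (−0.072) turned sign. COL4A2 A_70_P024616, at 0.00 as reported, turned to 0.035 with normexp without the extreme spots, 0.0088 with quantile normalization, 0.026 with median centring, 0.011 in the authors' table, 0.00083 with flagged spots kept, and to 0.020 and 0.066 without corneal or epidermal replicate 2, in a range of −0.037 to 0.066 when 1 array was left out. DAG1 turned to −0.011 without epidermal replicate 2, in a range of −0.011 to 0.046. Apart from the effect of the scaling and of the extreme spots, the cause was not tested. Leaving out 1 array gave 2811 to 3060 higher and 3387 to 3702 lower probes, and 5 to 6 higher and 5 to 6 lower basement membrane probes. The replicate number as a block gave 2822 higher and 3484 lower probes and ended the calls of COL4A2 A_70_P029901 (adjusted p = 0.0567) and P4HB (adjusted p = 0.115), but no other call of a named gene. Of 267 recomputed changes of basement membrane probes 229 kept direction and side of the threshold. Signal over background limits HSPG2, ITGB3, COL18A1 and the 10 untested integrin probes.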
